A study of Homo sapiens with 47 samples.

Results

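Trimethylation of lysine 9 of histone H3 (H3K9me3) was compared directly between shp150_AP1 and resistant 451Lu cells, a human melanoma cell line. The 4 libraries with this mark in those states, 2 of each, were taken from the 47 samples of the series. The shp150_AP1 cells over-expressed c-JUN and c-FOS, subunits of the AP-1 transcription factor, and carried a short hairpin RNA against p150. The resistant cells were resistant to vemurafenib, a drug that blocks the kinase BRAF. Each state had its own control with 2 H3K9me3 libraries, vector_NT (vector and NT control) for shp150_AP1 and parental cells for resistant. The vector_NT and parental libraries took no part in sorting the regions of the 4 libraries into classes. The labels do not say whether a state was 1 clone, which promoter drove the constructs, whether vemurafenib was present at harvest, or whether replicates were separate cultures, so the spread between replicates may be technical.

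H3K9me3 marks constitutive heterochromatin. Methyltransferases such as SUV39H1 and SETDB1 write it, HP1 proteins bind it, and it covers repeats and clusters of silent genes in broad blocks. The labels name the hairpin's target only as p150, a name carried by the large subunit of the histone chaperone CAF-1, which assembles nucleosomes behind replication forks, and by a subunit of dynactin. The purpose named for the comparison is to find where loss of heterochromatin differs between the engineered and the resistant state. The mark was read as islands, stretches on a 200 bp grid that the authors listed for each library, each with its ChIP reads, its input reads (DNA sequenced without the antibody) and the fold of ChIP over input. A stretch without an island has no value in these lists, so the lack of a call is not a measured lack of the mark. In bulk libraries, a mark present in fewer cells and less mark per cell cannot be told apart.

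H3K9me3 islands had a lower median fold in both resistant libraries than in both shp150_AP1 libraries, while the ranges of total length covered overlapped over all islands and not over islands with a false discovery rate under 0.01. On chromosomes 1 to 22 and X, islands covered 268.5 and 317.6 Mb in the shp150_AP1 libraries (293.0 ± 34.8 Mb, SD, n = 2) and 288.0 and 267.2 Mb in the resistant libraries (277.6 ± 14.7 Mb, SD, n = 2). The ranges overlapped, and an exact two-sided permutation test gave p = 0.667, where 2 libraries against 2 cannot go below 0.33. Restricted to islands with a false discovery rate under 0.01, cover was 241.1 and 286.0 Mb in shp150_AP1 and 235.7 and 224.3 Mb in resistant libraries, without overlap (exact permutation p = 0.33, the smallest possible). The mean difference was then 33.6 Mb, against 15.4 Mb over all islands. The median fold over islands was 2.12 and 1.96 in shp150_AP1 and 1.69 and 1.83 in resistant libraries, without overlap (exact permutation p = 0.33, the smallest possible). It was 2.13 and 2.21 in vector_NT and 2.17 and 2.20 in parental libraries, so both resistant values lay below the other 6. Islands with a fold under 1, fewer ChIP than input reads after the authors' scaling, made up 2.29% and 2.79% in shp150_AP1 against 6.82% and 5.14% in resistant lists. ChIP reads in islands came to 11.5 M and 14.9 M in shp150_AP1 and 14.8 M and 13.2 M in resistant libraries, with 11.1 M to 13.1 M input reads. The vector_NT libraries were deeper, at 31.1 M and 21.8 M ChIP reads, and the parental ones held 15.7 M and 18.3 M. The part of depth in the results was not tested.

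The 4 libraries did not pair off by state when whole lists were compared. The Jaccard index, the bases shared by 2 lists over the bases in either, was 0.504 between the shp150_AP1 replicates and 0.508 between the resistant replicates. It was 0.467 to 0.506 between a shp150_AP1 and a resistant library. The 4 control libraries shared more with each other, 0.559 to 0.610.

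Where the calls did separate, shp150_AP1 cells held the larger share. The islands of the 4 libraries merged into 64261 regions. A library counted as calling a region if its islands overlapped it by 1 bp or more. Islands were listed in both shp150_AP1 and in no resistant library at 4464 regions (6.95%, 20.5 Mb). The opposite, both resistant and no shp150_AP1 library, held at 1296 regions (2.02%, 7.79 Mb). At 20287 regions (31.6%, 300.8 Mb) all 4 libraries had an island. That length is of the merged regions, each of which 1 bp of island was enough to call, and with at least 50% of the region covered 8973 regions were called in all 4. These shares are themselves the whole-table percentages, and no test was made of them. The remaining 38214 regions were mixed, most often called in 1 shp150_AP1 library alone (15201) or in 1 resistant library alone (8173). The order of the shp150_AP1-only and resistant-only counts depended on the resistant replicates. Without resistant replicate 1 the counts were 7177 and 7412, which turns the order, and without resistant replicate 2 they were 8696 and 4497. Without shp150_AP1 replicate 1 they were 9653 and 2904, and without shp150_AP1 replicate 2 they were 16086 and 2786. With fewer libraries to satisfy, the rule calls more regions by its construction. The order held with at least 50% of the region covered (4559 against 2166), with islands at a false discovery rate under 0.01 (4646 against 841) and with lists cut to equal covered length (4040 against 1352).

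The classes differed in the strength of the mark. The shp150_AP1-only regions were short, with a median of 4.2 kb, and enriched, with median folds of 2.40 and 2.17 in the libraries that called them. Of these regions, 51.4% had a fold of at least 2 in both shp150_AP1 libraries and 1 region had a fold under 1 in both. The resistant-only regions had a median length of 5.6 kb and median folds of 1.34 and 1.44 in the resistant libraries. A fold of at least 2 in both resistant libraries was listed at 14.1% of them, and a fold under 1 in both at 14.8% (192 regions). Regions called in all 4 had a median length of 9.0 kb and median folds of 2.18 and 2.02 in shp150_AP1 and 1.81 and 1.93 in resistant libraries. Input reads moved with class. The median was 26.4 and 26.6 input reads per kb of island in shp150_AP1-only regions, against 39.7 and 39.8 in resistant-only regions and 32.6 to 35.0 in regions called in all 4. The part of input density in the calls was not tested.

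**Figure D1:**
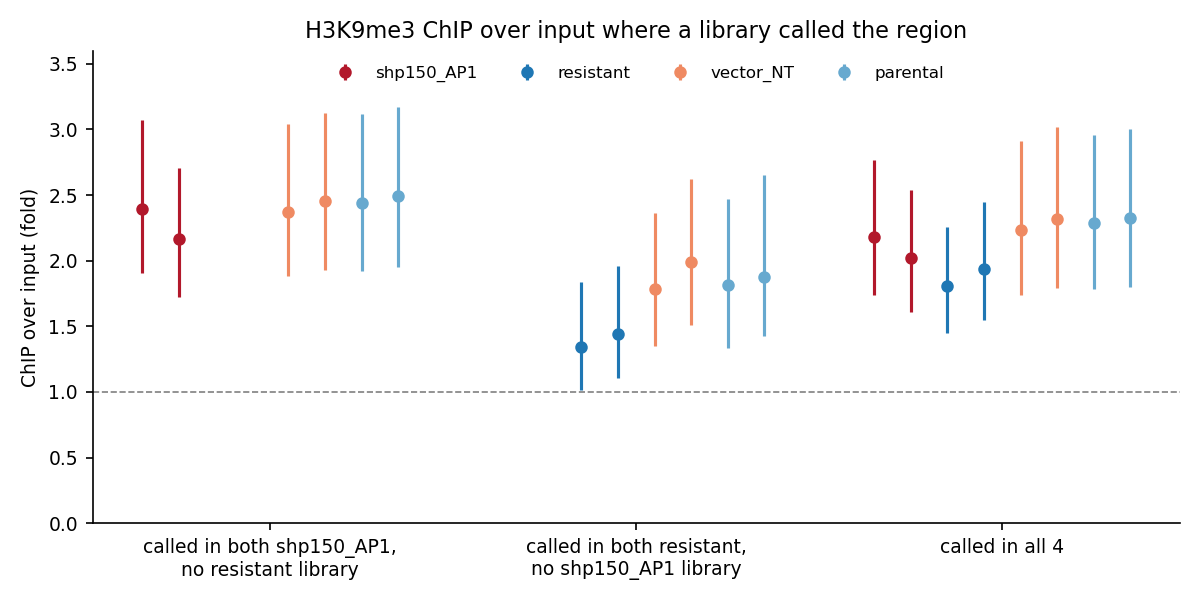
Median fold of H3K9me3 ChIP over input (points) with the 25th to 75th percentile of regions (bars), per library and region class, over regions that the library called; the dashed line marks a fold of 1. Resistant-only regions sit lowest, at 1.34 and 1.44 in the libraries that called them, against 2.40 and 2.17 for shp150_AP1-only regions.

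The 5 strongest shp150_AP1-only regions were also marked in every control library. On chromosome X, 80546401 to 80550200, the fold was 7.67 and 7.53 in shp150_AP1, 6.14 and 6.76 in vector_NT and 5.38 and 5.94 in parental libraries, with no island in either resistant library. At chromosome 13, 31913201 to 31916800, it was 5.75 and 5.61 in shp150_AP1, 6.70 and 5.42 in vector_NT and 3.96 and 4.13 in parental libraries. At chromosome 9, 20275401 to 20277200, it was 7.35 and 7.40 in shp150_AP1, 4.43 and 3.10 in vector_NT and 2.39 and 8.33 in parental libraries, an uneven set of control values. None of these 3 held an ATAC-seq peak, a stretch open to the Tn5 transposase, in any shp150_AP1 or resistant library. Of the same 5, the region at chromosome 17, 28280401 to 28283000, also held none. The region at chromosome 1, 232479801 to 232481400, held a peak in some of these libraries. No peak in any of the 4 was found at 93.1% of shp150_AP1-only and 83.9% of all regions. The longest shp150_AP1-only region, chromosome 8, 5879001 to 5897600 (18.6 kb), was weaker, with folds of 1.91 and 1.36 in shp150_AP1 libraries and islands in all 4 controls.

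Resistant-only regions ranged from well enriched to not enriched over input. The strongest lay on chromosome 22, 16054601 to 16057600, with resistant folds of 4.34 and 4.0 and an island in 1 parental library. Another 2 of the 5 strongest lay near the end of chromosome 10 and had no island in any control library, while the remaining 2, on chromosomes 15 and 19, had islands in all 4. At 132938601 to 132942400 the resistant folds were 4.5 and 3.91, and at 132819201 to 132825800 they were 3.43 and 4.32. By contrast, the longest resistant-only region, chromosome 11, 73625801 to 73647000, had resistant folds of 0.727 and 0.598 on 1640 and 673 input reads, below 1 in both libraries. That region had islands in all 4 control libraries. Chromosome 22, 36763401 to 36783200, had 0.736 and 0.625 and no control island. Both of these long regions held ATAC-seq peaks in all 4 shp150_AP1 and resistant libraries. Of the 5 longest, chromosome 20, 32128001 to 32148800, and chromosome 11, 69454601 to 69475200, also had such peaks and resistant folds under 1. The remaining region, chromosome 10, 132690201 to 132708000, had resistant folds of 3.02 and 2.64 and peaks in only some of these libraries. Peaks in all 4 were found at 16.4% of resistant-only and 8.72% of all regions.

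Regions called in all 4 libraries included very long blocks where the deposited fold was near 1. Of 60 such regions of at least 200 kb (30.1 Mb), 20 lay on chromosome 3, and 11 had a fold under 1 in all 4 libraries. The longest, chromosome 3, 68747801 to 72094200, spanned 3346 kb with folds of 0.969 and 0.961 in shp150_AP1, 0.957 and 0.953 in resistant, 1.02 and 1.03 in vector_NT and 1.03 and 1.03 in parental libraries. In regions called in all 8 libraries, input reads per kb on chromosome 3 exceeded those over all chromosomes by factors of 2.09 to 2.16 in these 4 libraries and 2.03 to 2.18 in the controls. Length covered by islands thus included length that was not enriched over input. A fold of at least 2 in all 4 libraries was listed at 5489 regions (27.1% of those called in all 4), covering 69.7 Mb.

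The control libraries, which the rule did not use, divided the classes. Of the shp150_AP1-only regions, 59.8% (exact 95% interval 58.4 to 61.3%) were called in all 4 controls and 6.72% (6.0 to 7.5%) in none. Of the resistant-only regions, 19.7% (17.5 to 21.95%) were called in all 4 controls and 41.2% (38.5 to 43.9%) in none. For regions called in all 4 shp150_AP1 and resistant libraries these shares were 89.8% and 1.35%, and over all 64261 regions 53.6% and 17.7%. Both parental libraries called 64.5% of the shp150_AP1-only regions (63.1 to 65.9%), against 57.3% of all regions. Both vector_NT libraries called 31.0% of the resistant-only regions (28.5 to 33.6%), against 64.8% of all regions. Like for like, both parental libraries called 24.5% of the resistant-only regions, and both vector_NT libraries called 76.55% of the shp150_AP1-only regions. These intervals hold only the error of counting, with each region taken as independent of its neighbours. Without shp150_AP1 replicate 2, both parental libraries called 40.9% of the shp150_AP1-only regions and both vector_NT libraries 47.6% of the resistant-only regions. The order of these 2 shares turned, but they come from different controls, so their order does not compare the classes like for like.

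**Figure D2:**
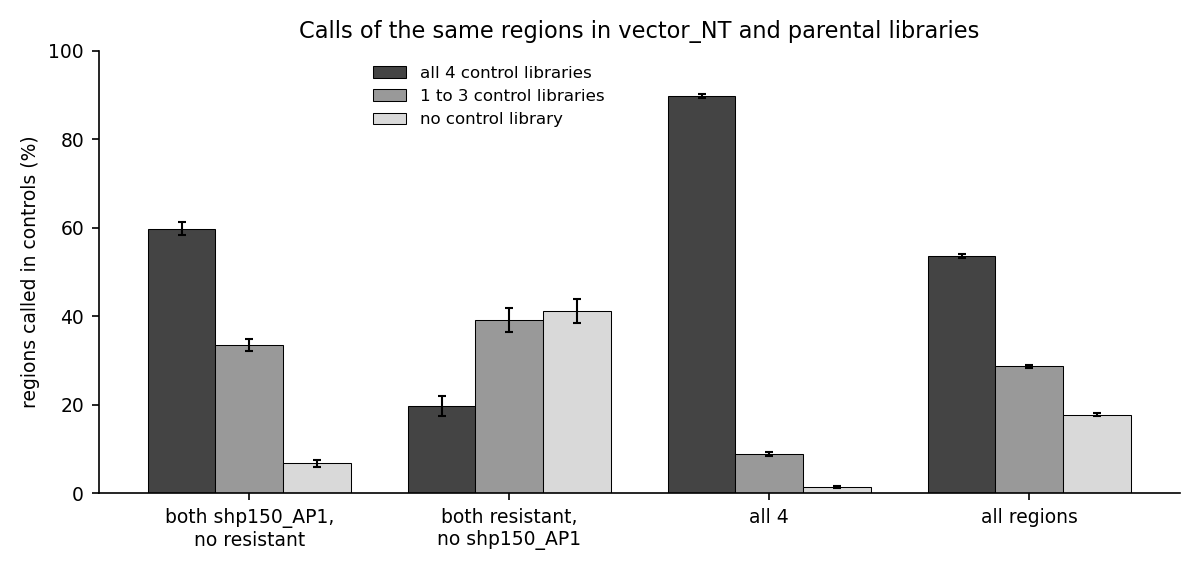
Percent of regions (y axis) of each class called in all 4, in 1 to 3 or in none of the vector_NT and parental libraries, with exact 95% binomial intervals that cover counting error only. All 4 controls called 59.8% of shp150_AP1-only and 19.7% of resistant-only regions.

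Among regions called in every control library, those with islands in shp150_AP1 alone outnumbered those with islands in resistant cells alone. Total cover, set against each state's own control, differed more in shp150_AP1, at 293.0 ± 34.8 Mb against 387.7 ± 12.2 Mb in vector_NT, than in resistant cells, at 277.6 ± 14.7 Mb against 332.0 ± 6.60 Mb in parental cells (SD, n = 2 each). The vector_NT libraries were also the deepest. When the islands of all 8 libraries were merged, 34521 regions were called in all 4 controls. Of these, 16853 (48.8%) were called in all 4 shp150_AP1 and resistant libraries, and 3983 (11.5%, 21.2 Mb) in none of them. Another 2331 (6.75%, 17.6 Mb) kept their islands in both shp150_AP1 libraries and had none in either resistant library. The reverse, islands in both resistant libraries and none in shp150_AP1, was listed at 200 regions (0.579%, 1.43 Mb). Over all 83399 regions of the 8 libraries, these states made up 4.71% and 1.36%. The other 11154 (32.3%) were called in 1 library of at least 1 state. Leaving out a state library raised these counts, which the rule itself favours, and kept their order. The 2331 and 200 regions became 3585 and 786 without shp150_AP1 replicate 1, 4397 and 737 without shp150_AP1 replicate 2, 3811 and 747 without resistant replicate 1 and 5010 and 468 without resistant replicate 2. Without each control library in turn they were 2409 to 2683 and 214 to 255. The 3983 regions called in neither state became 6044 without shp150_AP1 replicate 1 and 5998 without parental replicate 1. Among 11271 regions without a control call, both shp150_AP1 libraries and no resistant library called 298 (2.64%), both resistant and no shp150_AP1 library 529 (4.69%), and all 4 called 269 (2.39%).

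Chromosomes differed in direction. Mean island cover was higher in shp150_AP1 than in resistant cells on 19 of 23 chromosomes and lower on chromosomes 17, 20, 21 and 22. The replicates of the 2 states did not overlap on 12 chromosomes, with cover higher in shp150_AP1 on 10 (43.5%) and lower on 2 (8.70%). On chromosome 6, islands covered 7.82 and 9.46 Mb in shp150_AP1 and 5.26 and 5.42 Mb in resistant libraries, with 19.6 and 18.7 Mb in vector_NT and 15.3 and 16.5 Mb in parental libraries. On chromosome 4 they covered 9.53 and 11.6 Mb in shp150_AP1 and 7.11 and 7.17 Mb in resistant libraries, again below every control. On 9 chromosomes (1, 4, 6, 9, 10, 13, 15, 18 and X) both shp150_AP1 libraries lay above both resistant and below all 4 control libraries. Chromosome 20 went the other way, with 24.4 and 28.3 Mb in shp150_AP1 and 34.1 and 29.7 Mb in resistant libraries, against 26.7 and 25.3 Mb in vector_NT and 23.8 and 23.5 Mb in parental libraries. Chromosome 22 had 10.1 and 11 Mb in shp150_AP1 and 14.4 and 12.3 Mb in resistant libraries. Both resistant libraries exceeded all 4 controls on chromosomes 17, 20 and 22, and both shp150_AP1 libraries did so on chromosome 22.

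**Figure D3:**
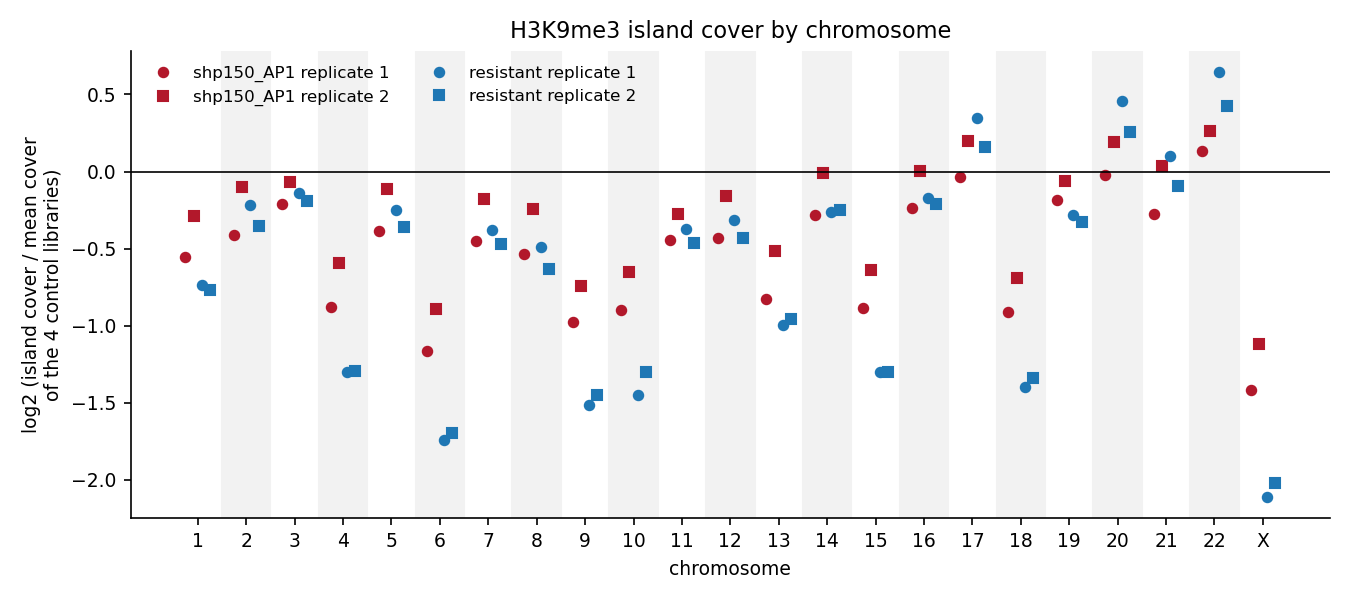
Length covered by H3K9me3 islands per chromosome in each shp150_AP1 and resistant library, as log2 of its ratio to the mean of the 4 vector_NT and parental libraries (y axis, 0 marks equal cover). Resistant libraries lie lower on chromosomes such as 4, 6, 15 and X and higher on 20 and 22.

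Resistant-only regions on chromosomes 20 and 22, which were singled out after their values were seen, had little enrichment over input. These 2 chromosomes held 267 of the 1296 resistant-only regions (20.6%), 49 of the shp150_AP1-only regions (1.10%) and 6.18% of all regions. There, resistant-only regions had median folds of 0.888 and 0.954 on 59.3 and 60.2 input reads per kb in the resistant libraries, and 65.5% had no control call. On the other chromosomes the 1029 resistant-only regions had median folds of 1.49 and 1.64, 35.8 and 36.1 input reads per kb, and no control call at 34.9%. The 49 shp150_AP1-only regions on chromosomes 20 and 22 were also weaker than elsewhere, so this was not particular to 1 class. Their median folds were 1.38 and 1.28 on 45 and 46.3 input reads per kb in the shp150_AP1 libraries. On the other chromosomes these were 2.41 and 2.18 on 26.25 and 26.5. In regions called in all 8 libraries, input reads per kb on chromosomes 20 and 22, relative to all chromosomes, were 1.07 to 1.11 in shp150_AP1 and 1.08 to 1.11 in resistant libraries. The control libraries had lower values there, at 0.997 to 1.036. Across the 23 chromosomes the log2 ratio of cover had a Pearson correlation of 0.283 and a Spearman correlation of 0.234 with the log2 ratio of input density, given as a description since chromosomes share their libraries.

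Within regions called in all 4 libraries, the enrichment over input could not be told apart region by region. The test took the 20282 such regions with at least 10 input reads in each library. Before centring, the median log2 ratio was 0.17 higher in shp150_AP1 than in resistant cells. After each library was centred on its median, limma with Benjamini-Hochberg adjustment called 0 regions higher (0.00%) and 0 lower (0.00%) in shp150_AP1, with 590 and 651 at an unadjusted p under 0.05. The count model edgeR with input as offset called 2 higher and 15 lower. Without centring limma also called 0 in either direction, with 1708 higher and 135 lower at an unadjusted p under 0.05. The region at chromosome 7, 10941601 to 10956000, had folds of 1.82 and 1.62 in shp150_AP1 and 3.06 and 3.55 in resistant libraries, a centred log2 difference of -1.11 ± 0.16 (SE), with an adjusted p of 0.78 in limma and 0.0084 in edgeR. Its shp150_AP1 islands held 388 and 457 input reads against 91 and 74 in the resistant ones, so the islands compared were of unequal length. The region at chromosome 2, 216164801 to 216169200, had folds of 4.11 and 3.29 in shp150_AP1 and 1.70 and 1.67 in resistant libraries (centred log2 difference 0.96 ± 0.17, SE; limma adjusted p = 0.78). Its islands held 46 and 66 input reads in shp150_AP1 against 144 and 171 in resistant libraries, again unequal. Neither passed in limma.

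Windows of 1 Mb showed where cover differed. In the 2477 windows with a mean cover of at least 1%, limma called 330 (13.3%) higher and 37 (1.49%) lower in shp150_AP1 at an adjusted p under 0.05, and the median difference over all tested windows was 1.10 percentage points. In the windows higher in shp150_AP1, the median fold was 2.59 and 2.42 in shp150_AP1 libraries, close to the 2.47 and 2.28 over all tested windows. Fold overlapped between the states there, since resistant libraries, at 2.02 and 2.18 over all tested windows, had 2.27 and 2.44 in these windows. Their median cover was 4.37% and 5.12% in shp150_AP1 and 1.79% and 2.15% in resistant libraries, with 9.36% and 8.87% in vector_NT and 7.11% and 7.48% in parental libraries. Over all 2477 windows the order was alike, at 5.68% and 6.92% in shp150_AP1, 4.74% and 4.58% in resistant, 10.1% and 9.54% in vector_NT and 7.8% and 8.22% in parental libraries. In 281 of the 330, both shp150_AP1 libraries lay below both vector_NT libraries, against 1788 of all 2477. In 320 of the 330, both resistant libraries lay below both parental ones, against 1671 of all 2477. The choice of windows itself sets resistant cover below shp150_AP1 cover there. They were most numerous on chromosomes 6 (54 of 159 tested), 4 (53 of 180) and 3 (33 of 170), with 22 of 76 on chromosome 15 and 5 of 13 on chromosome X. In the windows lower in shp150_AP1, median cover was 15.2% and 18.6% in shp150_AP1 and 32.8% and 30.1% in resistant libraries, with 16.6% and 15.8% in vector_NT and 16.3% and 15.9% in parental libraries. The choice of these 37 windows likewise sets resistant cover above shp150_AP1 cover. In all 37, both resistant libraries lay above both parental ones, against 472 of all 2477. The median fold of these windows was 1.07 and 1.14 in resistant against 1.38 and 1.28 in shp150_AP1 libraries. In the controls these windows had 1.47 and 1.52 (vector_NT) and 1.48 and 1.48 (parental). They were most numerous on chromosomes 3 (8 of 170 tested), 20 (7 of 61) and 22 (7 of 36).

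The counts of windows depended on single libraries, on the scaling, on window size and on the pairing of replicates. The higher and lower counts were 25 and 23 without shp150_AP1 replicate 2, 31 and 3 without resistant replicate 1, and 145 and 15 without resistant replicate 2. Without shp150_AP1 replicate 1 they were 457 and 14. When each library's total cover was scaled to be equal, they were 554 and 226. In 4686 windows of 500 kb they were 39 and 11. With replicate numbers crossed as a block, a setting added after the data were seen, they were 138 and 81.

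**Figure D4:**
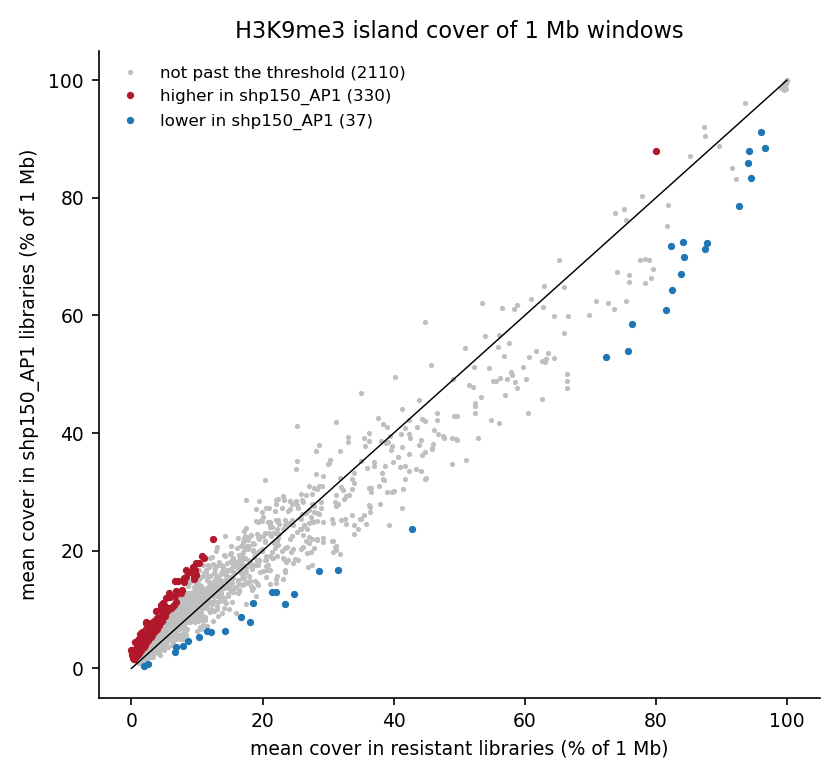
Mean percent of each 1 Mb window covered by H3K9me3 islands in shp150_AP1 libraries (y axis) against resistant libraries (x axis); the line marks equal cover and colours mark windows past the limma threshold. The 330 windows higher in shp150_AP1 lie mostly at low cover and the 37 lower ones across the range.

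The largest differences higher in shp150_AP1 lay on chromosomes 6, 3, 4 and 7. The window from 169000001 to 170000000 on chromosome 6 was covered to 19.1% and 24.8% in shp150_AP1 and 10.4% and 14.5% in resistant libraries, and to 59.1% and 57.7% in vector_NT and 45.6% and 48.6% in parental libraries (difference 9.48 ± 2.86 points, SE, limma adjusted p = 0.038). The window from 189000001 to 190000000 on chromosome 4 had 14.7% and 18.7% in shp150_AP1 and 9.16% and 7.60% in resistant libraries, against 33.2 to 43.5% in the controls (8.29 ± 1.99 points, limma adjusted p = 0.019). Neither window's states overlapped, and in both the controls were highest. Of the 67 and 52 regions starting in these windows, 10 and 13 were shp150_AP1-only, against 6.95% of all regions. Those regions come from the same islands as the cover, so this overlap is built in. The window from 16000001 to 17000000 on chromosome 7 had 13.6% and 16.1% in shp150_AP1 and 5.06% and 8.34% in resistant libraries (8.18 ± 1.75 points, limma adjusted p = 0.016).

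The largest differences lower in shp150_AP1 included 3 adjoining windows of chromosome 3, from 78000001 to 81000000. In the middle one, from 79000001 to 80000000, cover was 48.8% and 58.9% in shp150_AP1 and 80.8% and 70.9% in resistant libraries, with 28.6% and 24.3% in vector_NT and 29.6% and 31.1% in parental libraries (difference -21.93 ± 5.17 points, SE, limma adjusted p = 0.019). Both states lay above all controls there, resistant more so, while the fold over the window was 1.24 and 1.11 in shp150_AP1 and 1.0 and 1.03 in resistant libraries. At chromosome 22, 36000001 to 37000000, cover was 21.7% and 25.6% in shp150_AP1 and 49.8% and 35.6% in resistant libraries (-19.05 ± 5.85 points, limma adjusted p = 0.039). Of the 65 regions starting in this window, 9 were resistant-only, against 2.02% of all regions. This overlap is again built in, since the same islands make up the cover.

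Set against its own control, each state could be compared as a change. The interaction, the change from vector_NT to shp150_AP1 minus the change from parental to resistant, was fitted with limma to 2636 windows and called 1 (0.0379%) higher and 21 (0.797%) lower. Its median over all of these windows was -0.435 points, with 56 windows higher and 325 lower at an unadjusted p under 0.05. Without any single one of the 4 control libraries it called 0 in each direction, with 30 to 69 windows higher and 183 to 274 lower at an unadjusted p under 0.05. The lower count was 4 without shp150_AP1 replicate 1, 175 without shp150_AP1 replicate 2, 6 without resistant replicate 1 and 61 without resistant replicate 2. With total cover scaled to be equal, the counts were 96 higher and 138 lower. The median was then 0.570 points, with 426 windows higher and 261 lower at an unadjusted p under 0.05. The sign of the median and the order of the unadjusted counts thus turned with the scaling. Of the 2473 windows tested both ways, 328 were higher and 26 lower in the direct test and not called by the interaction, while 1 was higher and 10 were lower in both. Both tests contain the difference between the same 4 libraries, so a shared direction is built in. At chromosome 11, 134000001 to 135000000, shp150_AP1 averaged 22.8% against 47.9% in vector_NT, and resistant 33.9% against 31.4% in parental cells (interaction -27.62 ± 4.77 points, SE, limma adjusted p = 0.032). At chromosome 20, 14000001 to 15000000, shp150_AP1 averaged 67.1% against 65.5% in vector_NT, and resistant 83.9% against 60.3% in parental cells (-22.04 ± 4.69 points, limma adjusted p = 0.0496). In both windows vector_NT also had higher cover than parental cells, so the controls differed as well as the states. In the second, resistant cells had the highest cover of these groups.

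Open chromatin, read from ATAC-seq peak lists of the same states, was sparse in shp150_AP1-only regions. In resistant-only regions it was dense per Mb, but not by the share of regions with a peak when set against regions called in all 4 H3K9me3 libraries. There were 9.26 and 10.7 ATAC-seq peaks per Mb of shp150_AP1-only region in shp150_AP1 libraries and 11.2 and 12.04 in resistant libraries. In resistant-only regions there were 42.5 and 43.5 in shp150_AP1 and 43.8 and 45.7 in resistant libraries, and over all regions 21.1 and 22.3 in shp150_AP1 against 22.9 and 24.2 in resistant libraries. Resistant values were higher without overlap in each class (exact permutation p = 0.33, the smallest possible). The resistant peak lists were also longer, with 89922 and 94550 peaks against 84393 and 88478 in shp150_AP1, and the part of list length was not tested. The ratio of the shp150_AP1 to the resistant mean was 0.862 in shp150_AP1-only regions, 0.961 in resistant-only regions and 0.922 over all regions. A peak in both libraries of the state without the island and in neither of the other state was rare. Such peaks were also rare over all regions, so this is not particular to the classes. Of the shp150_AP1-only regions, 39 (0.874%) held a peak in both resistant and no shp150_AP1 library, against 1.26% of all regions, and 93.1% held no peak in any of the 4. Of the resistant-only regions, 11 (0.849%) held a peak in both shp150_AP1 and no resistant library, against 0.571% of all regions. No peak in any of the 4 was found at 73.2% of resistant-only regions and 83.9% of all regions. For regions called in all 4 H3K9me3 libraries it was 72.35%. Those regions had 22.9 and 24.0 peaks per Mb in shp150_AP1 and 24.3 and 25.8 in resistant libraries. H3K27ac, a mark of active promoters and enhancers, was read from 1 resistant and 1 parental list, of 2 libraries labelled for each. It had 8.14 peaks per Mb of shp150_AP1-only region in resistant and 6.63 in parental cells. Resistant-only regions had 41.2 H3K27ac peaks per Mb in resistant and 18.6 in parental cells, and all regions 20.7 and 13.4. The resistant list was the longer, with 51710 against 32304 peaks, and these values have no replicate check.

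**Figure D5:**
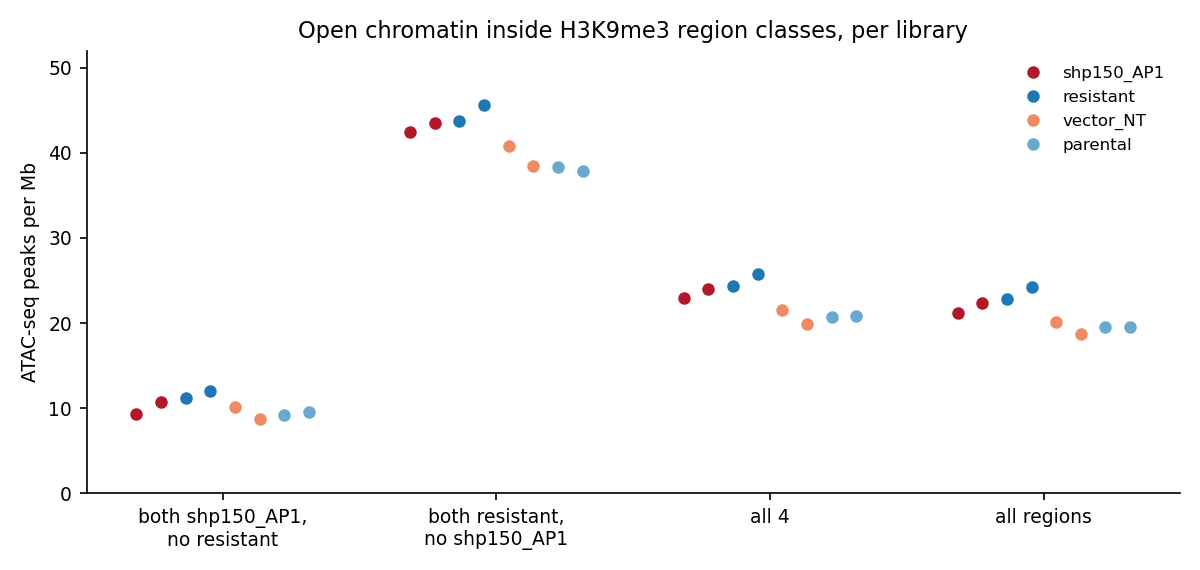
ATAC-seq peaks per Mb (y axis) inside each class of H3K9me3 regions, 1 point per ATAC-seq library. All 8 libraries have 8.68 to 12.04 peaks per Mb in shp150_AP1-only and 37.9 to 45.7 in resistant-only regions.

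The classes also differed in surroundings. The median distance to the nearest region called in all 4 libraries was 39.8 kb for shp150_AP1-only regions, 15.1 kb for resistant-only regions and 13.2 kb among the regions called in all 4 themselves. The 1 Mb windows with the most shp150_AP1-only regions were on chromosome 4 from 189000001 (13 regions), chromosome 7 from 12000001 (11), and chromosomes 5 from 130000001 and 6 from 169000001 (10 each). Those with the most resistant-only regions were on chromosome 20 from 33000001 and chromosome 22 from 36000001 (9 each). All coordinates are hg19, and no region was assigned to a gene here.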

How the data were processed

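H3K9me3 was measured by ChIP-seq in 4 groups of 451Lu cells, 2 libraries each, grouped by the labels. SICER, MACS2, Bowtie2, deepTools, Picard and STAR 2.5.3 appear, without roles, in the submitters' processing notes, as does genome build hg19. The deposited island lists hold, per library, the count of ChIP reads and of input reads, a p-value, a fold and a last column. The fold is, to within 1e-05 in relative terms, the ratio of the counts multiplied by a constant of that library. The last column was read here as a false discovery rate. Islands with p-values up to 1 are listed and were used. For the ATAC-seq and H3K27ac lists only peak positions were used, and the score that the authors' peak caller deposited was not. Of shp150_AP1, the labels used here list an input for replicate 2. Which input stands behind the folds of replicate 1 is not given in the sources used here. Its input counts equalled those of replicate 2 at 1.96% of the 255 islands with the same coordinates in both lists. Across the other pairs of H3K9me3 libraries this share was 0 to 3.37%.

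Islands were merged with pandas 2.3.3 and numpy 2.4.6. Counts were summed over the islands a library had in a region or 1 Mb window, and its fold is the ratio of these sums times the library's constant. Regions called in all 4 libraries were tested with limma 3.58.1 on log2 ratios centred per library, and windows with limma with trend on percent covered, with Benjamini-Hochberg adjustment. edgeR 4.0.16 was an alternative, and the scripts were tested on simulated data. The counts set how precise a fold is, since regions with few reads vary more. PCR copies are not independent molecules. Exact permutation tests and intervals used scipy 1.17.1. Named regions were the 5 longest and the 5 with the highest smaller fold of either one-state class, the 5 longest called in all 4, and, per test, the 5 largest differences past the threshold in each direction, or with none past it the 3 smallest p-values, of which the text gives a selection. Members and lists were chosen with earlier results of these data known. The alternatives without chromosomes 17, 20, 21 and 22 and with crossed replicate numbers, and leaving out libraries for the regions of every control library, were added after the data were seen. Cell type markers and the hairpin's target were not checked, since no expression table was used here.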

Additional observations from a re-analysis of the deposited data

Results flagged for a closer look

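These windows of 1 Mb were picked out because the change from vector_NT to shp150_AP1 differed from the change from parental to resistant cells in the limma interaction test, 1 upward and 21 downward. All of these calls were lost when any 1 of the 4 control libraries was left out. In points of cover, the interaction was 3.15 at chromosome 6, 78000001 to 79000000, where shp150_AP1 averaged 4.81% against 2.04% in vector_NT and resistant 1.47% against 1.85% in parental cells. It was -27.62 at chromosome 11, 134000001 to 135000000, and -22.04 at chromosome 20, 14000001 to 15000000, whose values stand in the results. It was -24.75 at chromosome 16, 34000001 to 35000000, where shp150_AP1 averaged 34.8% against 31.6% in vector_NT and resistant 48.9% against 20.9% in parental cells. At chromosome 13, 112000001 to 113000000, it was -17.11, with 24.6% in shp150_AP1 against 21.2% in vector_NT and 32.7% in resistant against 12.3% in parental cells. At chromosome 22, 30000001 to 31000000, it was -14.4, with 16.7% in shp150_AP1 against 14.2% in vector_NT and 31.5% in resistant against 14.5% in parental cells. In the last 3, cover in shp150_AP1 was within 3.32 points of vector_NT on average. At chromosomes 16 and 13 vector_NT also had higher cover than parental cells, so the controls differed there as well as the states.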

How the results depend on the processing

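Of 135 alternative values, 64 were labelled the same and 71 moved. A count was the same within the set margin, and a share within the interval of its main value. Sign was checked only for the difference in covered length, where 0 reversed. The order between counts or between shares was not labelled, so the turned orders given in the results fall outside these labels. Of those that moved, 47 came from leaving out 1 library. The cause of these shifts was not tested, except where fewer libraries make a rule easier to meet. With at least 50% of a region covered, 2166 regions were resistant-only and 8973 called in all 4, the parental share of shp150_AP1-only regions was 53.1% and the vector_NT share of resistant-only regions 25.3%. With islands at a false discovery rate under 0.01, 841 regions were resistant-only, that vector_NT share was 39.8%, 11 windows were lower, and the interaction called 2 higher and 13 lower. The vector_NT share was 40.98% with lists of equal covered length and 37.8% without chromosomes 17, 20, 21 and 22. edgeR called 2 regions higher and 15 lower where limma called 0. In windows of 500 kb, 39 were higher and 11 lower. With equal total cover, 554 windows were higher and 226 lower, and the interaction called 96 and 138. Without a minimum cover, 23 windows were lower and the interaction called 0 higher and 3 lower. Leaving out each library in turn gave 7177 to 16086 shp150_AP1-only, 2786 to 7412 resistant-only and 22079 to 25889 regions called in all 4, 2409 to 5010 regions of every control library held in shp150_AP1 alone, 214 to 786 in resistant alone and 4281 to 6044 in neither, and shares of 40.9 to 70.2% (parental) and 24.0 to 47.6% (vector_NT). It gave 0 to 0 regions by ratio, 25 to 457 windows higher and 3 to 23 lower, and interactions of 0 to 2 higher and 0 to 175 lower.

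The replicate numbers do not mark a shared batch in the labels, and deviations of same-numbered libraries correlated at -0.0127 for ratios and -0.496 for window cover. With a replicate block, limma called 0 regions higher and 0 lower by ratio, 397 windows higher and 25 lower, and interactions of 1 higher and 23 lower. The crossed pairing gave 138 windows higher and 81 lower.

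Island lists carry no value outside islands and set their edges per library, so a region without a call has no value to compare, and 2 libraries per state limit every count.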
